A study of Mus musculus with 8 samples.

Results

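The genes described here are 8 genes of the CXC chemokine system that steer T cells and other lymphocytes: the ligands Cxcl9, Cxcl10, Cxcl13, Cxcl16 and Cxcl12 and the receptors Cxcr3, Cxcr6 and Cxcr4. They were taken from a list of names, and all 8 were found, each on 1 probe set with a single gene symbol, among 22180 genes with a value. CXC chemokines are small secreted proteins that bind receptors coupled to inhibitory G proteins on leukocytes and direct their migration. CXCL9 and CXCL10 are induced by interferons and attract activated T cells through CXCR3. CXCL16 is made as a membrane protein and binds CXCR6, CXCL12 is a largely constitutive ligand of CXCR4, and CXCL13 draws B cells and follicular T cells through CXCR5. In experimental autoimmune encephalomyelitis, the mouse model of multiple sclerosis, chemokines of this kind are made in the inflamed brain and spinal cord.

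Brain RNA of 8 samples from MOG-immunized mice, all collected on day 14 at the peak of disease, had been hybridised to 1 array each. The 4 groups of 2 arrays were wild-type given phosphate-buffered saline (PBS), wild-type given NDP-MSH, C57BL/6Je/e given PBS and C57BL/6Je/e given NDP-MSH. NDP-MSH, a stable analog of alpha-MSH that activates melanocortin receptors, was given by vein on days 8, 10 and 12, at 5 µg for each mouse. C57BL/6Je/e mice (mutant below, e/e on figure axes) have a yellow coat and carry the recessive allele that inactivates Mc1r throughout the body, and wild-type mice have a black coat. No label gives an age, a sex, a disease score or whether replicates came from separate animals, and the p-values below then rest on the spread between samples that may be technical. Values are taken as log2, since no source states the base, and each probe set is centred on its median over the 8 arrays. They therefore carry differences between arrays and no absolute levels, genes cannot be ranked by abundance, and markers of the labelled tissue cannot be checked for presence. Mc1r values lay between -0.14 and 0.07 on the 8 arrays, which is no check of an allele that acts on the protein. Whole brain tissue was measured, so fewer cells of a type and less RNA per cell cannot be told apart in any value below.

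Several arrays stood apart within or across their groups. The Y-linked gene Eif2s3y lay at 2.04 in mutant PBS 2 and at 2.78 and 2.87 in mutant NDP-MSH 1 and 2, while the other 5 arrays lay between -0.19 and 0.02. Xist, which is transcribed from the inactive X chromosome, lay at -4.46 and -4.56 in mutant NDP-MSH 1 and 2 and between -0.82 and 0.67 elsewhere, so mutant PBS 2 carried signal of both kinds. Cerebellar markers had medians of -2.67 and -1.96 in wild-type mice given NDP-MSH, while the other 6 arrays lay between -0.07 and 0.33. Prl, the prolactin gene of the anterior pituitary, lay at 6.97 in wild-type NDP-MSH 1 alone. The part of these features in the chemokine values was not tested.

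The interferon-induced CXCR3 ligands varied most among the 8 genes, and they varied together over the arrays. Cxcl10 lay at -0.56 and 0.56 under PBS and 0.56 and 0.62 under NDP-MSH in wild-type arrays 1 and 2, -2.09 and 0.89 under PBS and -2.72 and -3.0 under NDP-MSH in mutant arrays 1 and 2. Cxcl9 lay at 0.02 and 1.06, 0.32 and -0.02, -2.03 and 1.04, and -2.54 and -3.01 in the same order. In both genes mutant PBS 1 was low like the mutant NDP-MSH arrays, whereas mutant PBS 2 was among the 2 highest of the 8 arrays. The 2 mutant PBS arrays were 2.99 apart in Cxcl10 and 3.07 in Cxcl9, more than any other pair of the same group. Over the 8 arrays Cxcl9 spanned 4.07 and Cxcl10 3.89, against 0.49 for their receptor gene Cxcr3.

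Group means of Cxcl10 were ordered wild-type NDP-MSH (0.59 ± 0.04, SD, n = 2), wild-type PBS (0.0 ± 0.8), mutant PBS (-0.6 ± 2.11) and mutant NDP-MSH (-2.86 ± 0.2). For Cxcl9 the order was wild-type PBS (0.54 ± 0.73), wild-type NDP-MSH (0.15 ± 0.24), mutant PBS (-0.5 ± 2.17) and mutant NDP-MSH (-2.77 ± 0.33). Neighbouring groups in these orders differed by less than the spread within the wider of the pair, apart from the step down to mutant NDP-MSH, which was slightly more than the SD of the mutant PBS arrays. The promoters of these genes are shown because the genes varied together over the arrays. Both are the 250 bases before the RefSeq gene start (GRCm38.p6, minus strand), chr5:92328080-92328329 for Cxcl9 and chr5:92348890-92349139 for Cxcl10, written 5′ to 3′ with motif matches in capitals.
Cxcl9: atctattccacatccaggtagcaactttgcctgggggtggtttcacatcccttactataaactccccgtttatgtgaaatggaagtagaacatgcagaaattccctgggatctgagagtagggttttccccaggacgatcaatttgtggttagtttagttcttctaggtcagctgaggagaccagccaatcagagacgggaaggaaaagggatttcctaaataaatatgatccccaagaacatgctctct
Cxcl10: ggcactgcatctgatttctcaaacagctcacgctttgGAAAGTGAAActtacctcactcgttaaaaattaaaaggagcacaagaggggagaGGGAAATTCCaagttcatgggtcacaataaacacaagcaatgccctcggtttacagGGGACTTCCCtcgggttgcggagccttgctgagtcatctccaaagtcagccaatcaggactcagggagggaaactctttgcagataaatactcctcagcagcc
The first capital stretch of Cxcl10, GAAAGTGAAA at 213 to 204 bases before the start, matches GAAA, 2 bases of any kind and GAAA, the core of the interferon-stimulated response element. The other stretches, GGGAAATTCC at 159 to 150 bases and GGGACTTCCC at 103 to 94 bases before the start, match the NF-kappaB motif. Matches were sought on both strands, and none of them overlap. Of 32851 windows of this length in the RefSeq promoter table, 2.98% held the first motif and 3.9% the NF-kappaB motif. Among the members, 7 had a window in the table, and Cxcl10 was the only one with a match to either motif. The gamma-activated site TTCNNNGAA was in 7.02% of all windows and in 0 of these 7. A match is a description of letters and no evidence of binding.

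**Figure D1:**
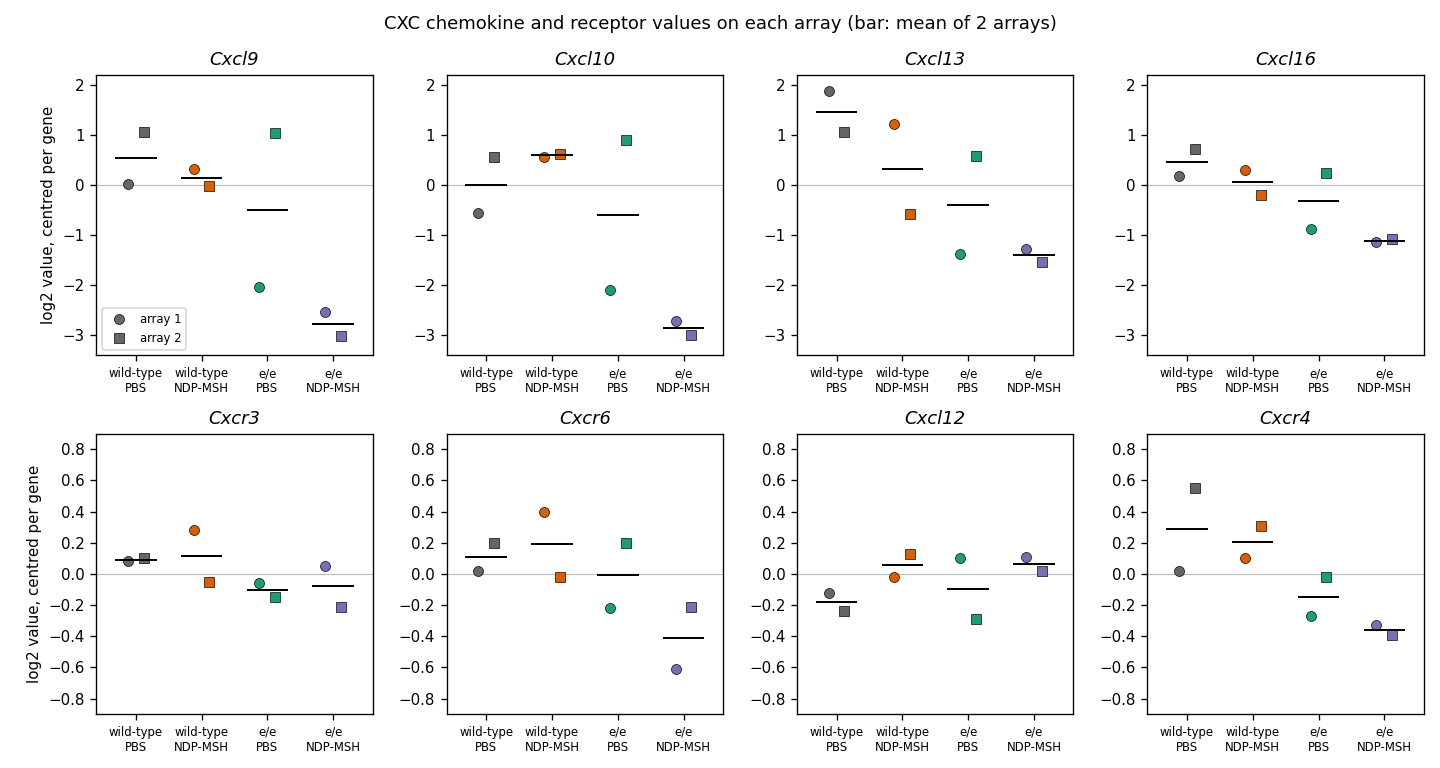
Log2 values, centred per gene (vertical axis), of the 8 genes on each array in the 4 groups (horizontal axis), with circles for array 1, squares for array 2 and bars for the mean of 2 arrays. The vertical axes of the upper and lower rows differ. In Cxcl9 and Cxcl10 the mutant PBS arrays lie 3.07 and 2.99 apart, and in all 4 genes of the upper row mutant PBS 1 and the mutant NDP-MSH arrays are the lowest 3.

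Cxcr3, the receptor gene of CXCL9 and CXCL10 and a marker of effector T cells, varied less over the arrays than those ligand genes. Its span of 0.49 was still at least as wide as that of 78.4% of all genes. It lay at 0.08 and 0.1 under PBS and 0.28 and -0.05 under NDP-MSH in wild-type arrays, -0.06 and -0.15 under PBS and 0.05 and -0.21 under NDP-MSH in mutant arrays. The wild-type and mutant ranges overlapped, and none of the treatment contrasts moved it by more than 0.02 ± 0.13. Its 95% interval for NDP-MSH minus PBS ran from -0.28 to 0.33 in wild-type and from -0.28 to 0.32 in mutant mice. The precision left in the deposited decimals places its signal before centring between 4 and 8, the same range as for Cxcl16, Cxcr6 and Cxcr4. Cxcl12 was placed at 8 or above, and Cxcl9, Cxcl10 and Cxcl13 could not be placed. The range 4 to 8 held 25942 of 33793 probe sets, so sharing it does not rank these genes by abundance. Cxcl16 spanned 1.85 over the arrays, Cxcr6 1.01 and Cxcr4 0.93.

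Cxcl13, the ligand of CXCR5 on B cells and follicular T cells, was highest in wild-type mice given PBS. It lay at 1.88 and 1.05 under PBS and 1.22 and -0.57 under NDP-MSH in wild-type arrays, -1.38 and 0.57 under PBS and -1.27 and -1.54 under NDP-MSH in mutant arrays. The wild-type PBS arrays were above both mutant PBS arrays, and the 2 wild-type NDP-MSH arrays were 1.79 apart. Group means were ordered wild-type PBS (1.46 ± 0.59), wild-type NDP-MSH (0.33 ± 1.27), mutant PBS (-0.41 ± 1.38) and mutant NDP-MSH (-1.41 ± 0.19), and each step between neighbours was smaller than the larger SD of the pair. Its receptor gene Cxcr5 differed by less, with values from -0.15 to 0.27. B cell and plasma cell markers had list medians between -0.06 and 0.08 on the 8 arrays. Cxcl13 spanned 3.42 over the same arrays.

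The CXCL16 and CXCR6 pair, which links membrane-bound chemokine on myeloid cells with activated T cells, was lowest in mutant mice given NDP-MSH. Cxcl16 lay at 0.19 and 0.71 under PBS and 0.3 and -0.19 under NDP-MSH in wild-type arrays, -0.87 and 0.24 under PBS and -1.14 and -1.08 under NDP-MSH in mutant arrays. All wild-type values of Cxcl16 were above those of mutant PBS 1 and of both mutant NDP-MSH arrays. Cxcr6 lay at 0.02 and 0.2, 0.4 and -0.02, -0.22 and 0.2, and -0.61 and -0.21 in the same order. The mutant PBS and mutant NDP-MSH arrays overlapped in Cxcr6, since mutant PBS 1 (-0.22) was marginally below mutant NDP-MSH 2 (-0.21).

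CXCL12 and CXCR4 form the constitutive axis, which holds leukocytes at vessel walls and guides neural and haematopoietic cells. Cxcl12 lay at -0.12 and -0.24 under PBS and -0.02 and 0.13 under NDP-MSH in wild-type arrays, 0.1 and -0.29 under PBS and 0.11 and 0.02 under NDP-MSH in mutant arrays, a span of 0.42 that was the smallest of the 8 genes. Its lowest array was mutant PBS 2, which was among the highest arrays for Cxcl9 and Cxcl10. Cxcr4 lay at 0.02 and 0.55, 0.1 and 0.31, -0.27 and -0.02, and -0.33 and -0.39 in the same order. Both mutant values of Cxcr4 were below both wild-type values under PBS, as in 16.7% of all genes, and under NDP-MSH, as in 23.6%. The lowest wild-type value (0.02) and the highest mutant value (-0.02) lay close together. Cxcr4 did not pass the adjusted threshold between genotypes under PBS or under NDP-MSH (limma adjusted p = 0.971 and 0.209). Over all members, the lowest 3 arrays were mutant PBS 1 and the mutant NDP-MSH arrays in 6 of 8 genes (Cxcl9, Cxcl10, Cxcl13, Cxcl16, Cxcr6 and Cxcr4), an ordering found in 4.86% of the 22180 genes and looked for after the values were seen.

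The first comparison of the series asks whether NDP-MSH altered brain transcripts in wild-type mice. Of the 8 genes 4 had a mean above and 4 below the PBS group (45.0% of all genes below), with a median log2 difference of -0.03 beside 0.018 for all genes. None passed an adjusted p of 0.05 (limma, Benjamini-Hochberg over 22180 genes), where 0.176% of genes passed, and 0 had an unadjusted p under 0.05, where 12.3% of genes did. Cxcl13 had the widest difference, -1.14 ± 0.72 (SE, adjusted p = 0.551). It was -2.03 without wild-type NDP-MSH 1 and -0.24 without wild-type NDP-MSH 2. Cxcl10 differed by 0.59 ± 0.83 (adjusted p = 0.81) and Cxcl9 by -0.39 ± 0.85 (adjusted p = 0.889), so the CXCR3 ligands had opposite signs. Without wild-type PBS 2, the difference was 0.13 in Cxcl9 and 1.15 in Cxcl10, and without wild-type PBS 1 it was -0.91 and 0.03. Quantile normalization of the row-centred values gave 0.96 for Cxcl10.

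None of the remaining wild-type differences passed either. Cxcl16 differed by -0.4 ± 0.35 (from -0.66 without wild-type PBS 1 to -0.14 without wild-type PBS 2), Cxcl12 by 0.24 ± 0.13, Cxcr4 by -0.08 ± 0.18, Cxcr6 by 0.07 ± 0.2 and Cxcr3 by 0.02 ± 0.13. In Cxcl10 and Cxcl12 both NDP-MSH arrays were above both PBS arrays, which is 2 of 8 genes where 25.3% of all genes had that order. None of the genes had both NDP-MSH arrays below both PBS arrays, where 18.9% did. The 95% intervals were wide for the induced ligands, from -1.35 to 2.54 in Cxcl10 and from -2.39 to 1.6 in Cxcl9. This fit therefore could not exclude changes of several fold in either direction. Its spread is shared over all groups, and the mutant PBS arrays had the largest SD (2.11 in Cxcl10 and 2.17 in Cxcl9). With only the wild-type arrays fitted, the SE was 0.34 in Cxcl10 and 0.33 in Cxcl9, and neither passed (limma adjusted p = 0.527 and 0.679).

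The same question in mutant mice, which lack working Mc1r, gave larger differences as group means. Cxcl9 differed by -2.28 ± 0.85 (4.85-fold, unadjusted p = 0.0304, limma adjusted p = 1.0) and Cxcl10 by -2.26 ± 0.83 (4.79-fold, unadjusted p = 0.0282, adjusted p = 1.0). In size these ranked 6 and 7 among 22180 genes. Cxcl13 differed by -1.0 ± 0.72, Cxcl16 by -0.79 ± 0.35, Cxcr6 by -0.4 ± 0.2 and Cxcr4 by -0.21 ± 0.18. Cxcl12 lay at 0.16 ± 0.13 and Cxcr3 at 0.02 ± 0.13. No member passed the adjusted threshold, as was the case for all 22180 genes (0%). An unadjusted p under 0.05 was found in 2 of 8 members, both lower, and in 3.56% of all genes (1.78% lower). The median of the 8 genes was -0.6, beside 0.008 over all genes, with 6 of 8 differences below 0 where 46.3% of genes had one. Both NDP-MSH arrays were below both PBS arrays in 4 of 8 genes (Cxcl9, Cxcl10, Cxcl16 and Cxcr4), where 14.3% of all genes had that order.

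These mutant differences depended on which PBS array they were measured against. Without mutant PBS 1, Cxcl9 lay at -3.81 and Cxcl10 at -3.75, and both passed (limma adjusted p = 0.0295 each), as did 51 of 22180 genes in that fit, with the lone array assumed to vary like the other groups. Without mutant PBS 2, which carried both Xist and Y-linked signal, they lay at -0.74 and -0.77, and neither was among the 4 genes that passed. In Cxcl13 the corresponding values were -1.98 and -0.03, in Cxcl16 -1.34 and -0.24, in Cxcr6 -0.61 and -0.19, and in Cxcr4 -0.34 and -0.08. Quantile normalization of the row-centred values gave -1.37 for Cxcl9 and -1.27 for Cxcl10. That step gives all arrays 1 distribution of centred values, so values as extreme as these can move through it alone. Y-linked signal was high in both mutant NDP-MSH arrays and in mutant PBS 2 and low in mutant PBS 1, and its part in these values was not tested.

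**Figure D2:**
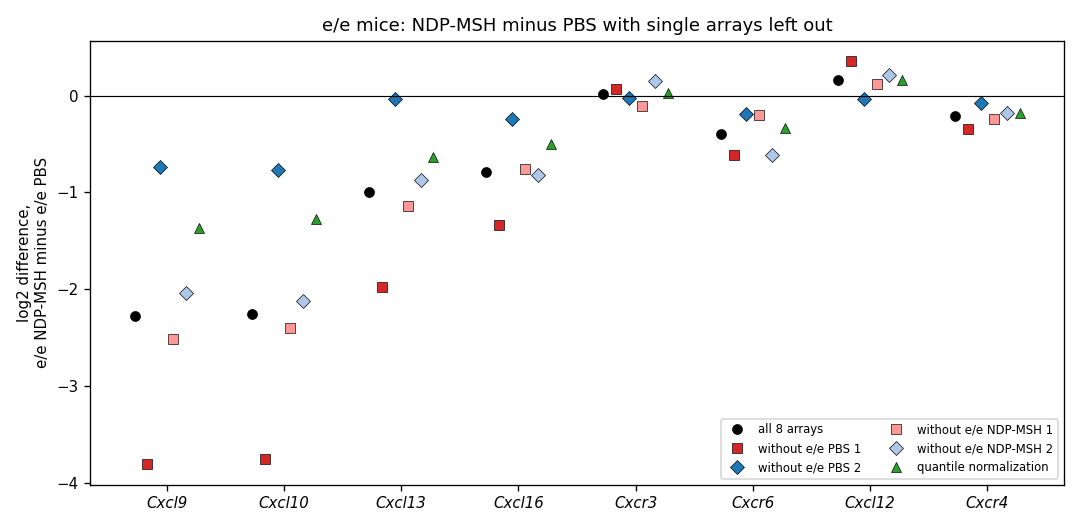
Log2 difference of mutant NDP-MSH minus mutant PBS (vertical axis) for the 8 genes (horizontal axis), with all arrays, without each mutant array in turn and after quantile normalization. Cxcl9 ranges from -3.81 without mutant PBS 1 to -0.74 without mutant PBS 2, and Cxcr3 stays near 0.

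The difference of the NDP-MSH effects, wild-type minus mutant, tests whether the response depended on genotype. It was 2.85 ± 1.18 in Cxcl10 (95% interval 0.1 to 5.6, unadjusted p = 0.0438, limma adjusted p = 0.633) and 1.88 ± 1.21 in Cxcl9 (adjusted p = 0.754). In Cxcl10 it was the fifth largest of 22180 genes by size. No member passed the adjusted threshold (0% of all genes), and 1 of 8 had an unadjusted p under 0.05, where 7.71% of genes did (3.67% with a positive difference). Of the 8 differences 7 were above 0, and over all genes 47.2% were below 0. Without mutant PBS 1 the Cxcl10 value was 4.35, and without mutant PBS 2 it was 1.36. Cxcl9 moved to 3.42 and 0.35 in the same way, and to 1.00 after quantile normalization. Cxcr6 lay at 0.48 ± 0.29 (0.27 without any 1 of wild-type NDP-MSH 1, mutant PBS 2 and mutant NDP-MSH 1), Cxcl16 at 0.39 ± 0.49, Cxcr4 at 0.13 ± 0.25, Cxcl13 at -0.13 ± 1.02, Cxcl12 at 0.07 ± 0.19 and Cxcr3 at 0.0 ± 0.18. This contrast uses the same arrays as those above and adds no independent samples.

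Between the genotypes under PBS, Cxcl13 was lower in mutant mice by the widest margin of all 22180 genes, at -1.87 ± 0.72 (unadjusted p = 0.0347, limma adjusted p = 0.971). It was -0.89 without mutant PBS 1 and -2.84 without mutant PBS 2. Cxcr4 differed by -0.43 ± 0.18 (unadjusted p = 0.0422, adjusted p = 0.971), and by -0.69 without wild-type PBS 1 and -0.17 without wild-type PBS 2. Cxcl16 differed by -0.77 ± 0.35 (-0.21 without mutant PBS 1 and -1.32 without mutant PBS 2). Cxcl9 (-1.04 ± 0.85) and Cxcl10 (-0.6 ± 0.83) turned to 0.5 and 0.89 without mutant PBS 1, and lay at -0.52 and -0.04 without wild-type PBS 2. Cxcl10 was -0.07 after quantile normalization. Cxcr3 lay at -0.19 ± 0.13, Cxcr6 at -0.12 ± 0.2 and Cxcl12 at 0.09 ± 0.13. No gene passed (0% of all genes), and 2 of 8 members had an unadjusted p under 0.05, both lower, where 4.91% of genes did (2.56% lower). Of the 8 differences 7 were below 0, against 49.9% of all genes, and 3 of 8 (Cxcl13, Cxcr4 and Cxcr3) had both mutant arrays below both wild-type arrays, where 16.7% of genes did.

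The genotypes were also compared under NDP-MSH, a contrast that the series does not name and that was added after the values were seen. Arrays of 1 group lay at most 0.47 apart here in Cxcl9 and 0.28 in Cxcl10. Cxcl10 differed by -3.45 ± 0.83 between mutant and wild-type mice (11-fold, unadjusted p = 0.00375, limma adjusted p = 0.136). Cxcl9 differed by -2.92 ± 0.85 (7.57-fold, adjusted p = 0.189), Cxcl13 by -1.73 ± 0.72, Cxcl16 by -1.16 ± 0.35, Cxcr6 by -0.6 ± 0.2 and Cxcr4 by -0.56 ± 0.18. Cxcr3 lay at -0.19 ± 0.13 and Cxcl12 at 0.02 ± 0.13. No member passed the adjusted threshold, which 0.338% of genes did. An unadjusted p under 0.05 was found in 6 of 8 members, all lower, and in 14.2% of genes (7.45% lower). Of the 8 differences 7 were below 0, against 52.4% of all genes, and the same 6 genes had both mutant arrays below both wild-type arrays, an order seen in 23.6% of genes.

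In the fit of only these 4 arrays, whose spread leaves out the PBS arrays, 3 members were lower past the threshold, among 477 of 22180 genes that passed. They were Cxcl10 (limma adjusted p = 0.000183), Cxcl9 (0.00173) and Cxcl16 (0.025). Leaving out either mutant PBS array left the differences of these 3 genes unchanged. For this contrast both choices are the same fit, since the lone mutant PBS array that remains adds nothing to the spread. The wide spread between the mutant PBS arrays therefore drops out of those fits as well. Over all alternatives the adjusted p of Cxcl9 ran from 0.00173 to 0.608, the latter without mutant NDP-MSH 2. Quantile normalization brought Cxcl10 to -2.3 and Cxcl9 to -1.85. Cxcr6 was -0.39 without wild-type NDP-MSH 1 or without mutant NDP-MSH 1. Cxcl13 was -0.84 without wild-type NDP-MSH 1 and -2.63 without wild-type NDP-MSH 2. Y-linked signal was high in both mutant arrays of this contrast and in neither wild-type array, and cerebellar markers were low in the wild-type ones. Oligodendrocyte markers had medians of -0.27 and -0.35 in those wild-type arrays. Of these markers 6 of 6 were higher in mutants at an unadjusted p under 0.05 (limma, median 0.43, 0 past the adjusted threshold). Over all genes 14.2% had such a p in either direction. Genotype cannot be told apart from these features here.

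**Figure D3:**
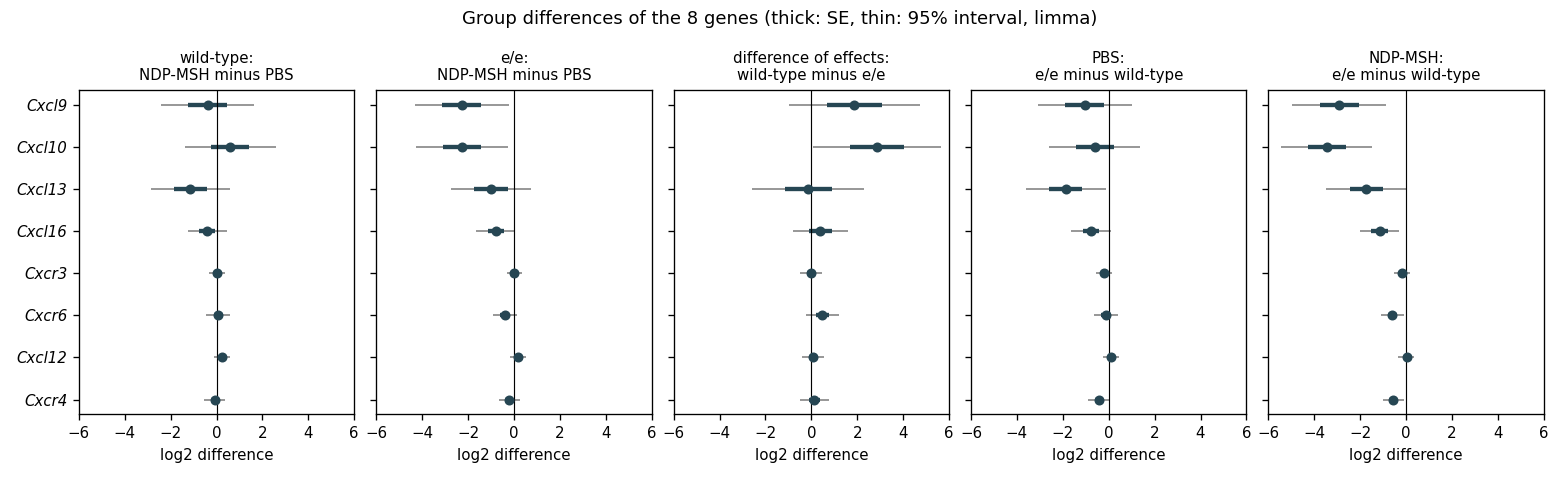
Log2 differences (horizontal axis) of the 8 genes (vertical axis) in 5 comparisons, with points for the limma estimate, thick bars for the SE and thin bars for the 95% interval. The widest estimates are those of Cxcl10 and Cxcl9, at -3.45 and -2.92 in the comparison of genotypes under NDP-MSH, and the intervals of Cxcr3 and Cxcl12 stay near 0 in all 5 panels.

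Other genes of the pathway were read from lists of names. Interferon gamma, the main inducer of Cxcl9 and Cxcl10, signals through its receptor and JAK kinases. In that list 7 of 8 measured genes had a positive NDP-MSH difference in wild-type mice (median 0.04), where 45.0% of all genes were below 0. In mutant mice 8 of 8 had a negative one (median -0.15), where 46.3% of all genes did. The adjusted threshold was passed by 0 in either genotype. Several of these differences were smaller than their SE, such as Jak1 (-0.05 ± 0.07) and Ifngr2 (-0.01 ± 0.11) in mutant mice. Between genotypes under NDP-MSH all 8 were lower (median -0.35), where 52.4% of all genes were. Among them were the receptor subunit gene Ifngr1 (-0.45 ± 0.12, unadjusted p = 0.0067, limma adjusted p = 0.162) and the transcription factor gene Irf8 (-0.65 ± 0.22, adjusted p = 0.249). Ifng itself, singled out after its values were seen, lay between -0.18 and 0.2 on all arrays. Irf1, singled out likewise and a transcription factor that interferons induce, lay at -0.91 in mutant PBS 1, 0.82 in mutant PBS 2, and -1.05 and -1.24 in mutant NDP-MSH 1 and 2.

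Genes that interferon gamma induces in many cell types were low on the arrays where Cxcl9 and Cxcl10 were low. Mutant PBS 1 and the mutant NDP-MSH arrays were the lowest 3 in 12 of 14 of them, where 4.86% of all genes had that order. The order was taken from the chemokine values, and the list was chosen with earlier results of these data known. The count is therefore a description and no independent support. The median of 14 such genes lay at -0.28 and 0.63 under PBS and 0.34 and 0.29 under NDP-MSH in wild-type arrays, -1.56 and 0.59 under PBS and -1.84 and -1.84 under NDP-MSH in mutant arrays. Their median difference was 0.08 for NDP-MSH in wild-type mice (10 of 14 higher) and -1.38 in mutant mice (14 of 14 below 0, where 46.3% of all genes were, and 6 at an unadjusted p under 0.05, where 1.78% were lower at that p). Under NDP-MSH, mutant against wild-type, 14 of 14 were below 0 with a median of -2.21, and 12 had an unadjusted p under 0.05, where 7.45% of genes were lower at that p. The GTPase genes Irgm2 (-2.86 ± 0.64, limma adjusted p = 0.119) and Igtp (-3.69 ± 0.92, adjusted p = 0.143) had the smallest p. None of the 14 passed the adjusted threshold in any of the 5 comparisons.

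The other CXC ligands were evenly divided. Of 10 genes, most of them neutrophil attractants, 5 were higher and 5 lower after NDP-MSH in each genotype (medians 0.02 in wild-type and 0.01 in mutant mice), and 0 passed. Cxcl17, a chemokine of mucosal tissues, had the smallest p in wild-type mice (-0.34 ± 0.09, limma adjusted p = 0.258), and Cxcl3, a neutrophil attractant, differed by -0.2 ± 0.08 between genotypes under NDP-MSH (adjusted p = 0.315). Cxcl11, the remaining interferon-induced CXCR3 ligand, was singled out after its values were seen and lay between -0.25 and 0.48 on the 8 arrays. Of 7 other CXC and atypical receptors 5 were higher after NDP-MSH in each genotype, with medians of 0.09 and 0.12 and none at an unadjusted p under 0.05.

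None of the genes that cut chemokines or relay their signal passed the threshold in any of the 5 comparisons. Among 7 protease genes Dpp4, whose product trims the amino end of CXCL9, CXCL10 and CXCL12, differed by 0.41 ± 0.11 after NDP-MSH in wild-type mice (limma adjusted p = 0.263), and Ctsk, a cathepsin gene, by 0.37 ± 0.13 in mutant mice (adjusted p = 1.0). The list medians were 0.1 and -0.02 in the same order. In 12 measured genes of receptor signalling the medians were -0.02 in wild-type and 0.0 in mutant mice. Between genotypes under NDP-MSH, 8 of 12 were lower, where 52.4% of all genes were. Rac2, the GTPase gene of blood cells that drives migration, differed by -1.44 ± 0.31 (adjusted p = 0.116), and Pik3cg, a kinase gene downstream of chemokine receptors, by -0.9 ± 0.24 (adjusted p = 0.163).

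Markers of T cells and of monocytes, macrophages and dendritic cells had their lowest medians on the same 3 arrays. Those were the lowest 3 in 5 of 9 and 5 of 10 measured markers, an ordering taken from the chemokine values and found in 4.86% of all genes. The median of 9 measured T cell markers lay at 0.02 and 0.23 under PBS and 0.15 and 0.15 under NDP-MSH in wild-type arrays, -0.23 and 0.08 under PBS and -0.24 and -0.3 under NDP-MSH in mutant arrays. Cd3e, part of the T cell receptor complex, lay at 0.24 and 0.04, 1.08 and -0.04, -0.75 and 0.08, and -0.78 and -0.89 in the same order. It had the largest difference of the T cell list between genotypes under NDP-MSH (-1.35 ± 0.37), where Cd3d and Tbx21 differed by -0.16 each. After NDP-MSH in mutant mice 7 of 9 T cell markers were lower, where 46.3% of all genes were. Tbx21 (0.2 ± 0.11) and Cd5 (0.01 ± 0.16) were not lower. The median of 10 monocyte, macrophage and dendritic cell markers lay at 0.03 and 0.15, 0.48 and 0.16, -0.42 and 0.06, and -0.43 and -0.5 in the order of arrays given for T cells. Among these the lysozyme gene Lyz2 lay at -1.87 in mutant PBS 1, 0.12 in mutant PBS 2, and -2.09 and -2.38 in mutant NDP-MSH 1 and 2. Cd163, a scavenger receptor gene of macrophages and the only marker of that list past the threshold in any comparison, differed by -0.57 ± 0.07 between genotypes under NDP-MSH (limma adjusted p = 0.0345). It had another order, at 0.44 and 0.47 in wild-type mice given NDP-MSH and -0.04 on both mutant PBS arrays, and Flt3, a dendritic cell gene, had a positive difference in that contrast (0.52 ± 0.13, adjusted p = 0.148). Cd3e, Lyz2, Flt3 and Gfap are named after their values were seen. Gfap, the astrocyte filament gene, lay at -1.03 in mutant PBS 1, 0.05 in mutant PBS 2 and -1.06 and -1.19 in mutant NDP-MSH 1 and 2, while astrocyte list medians lay between -0.11 and 0.04. It was the only 1 of 7 astrocyte markers with those 3 arrays lowest. Between genotypes under NDP-MSH, 5 of 7 astrocyte markers were higher in mutants and 2 lower, where 52.4% of all genes were lower. Among the higher ones were S100b (0.53 ± 0.1, limma adjusted p = 0.0782) and Aqp4 (0.34 ± 0.14). The medians of microglia markers lay between -0.18 and 0.23, those of neutrophil markers between -0.13 and 0.22 and those of endothelium and pericyte markers between -0.09 and 0.18. Microglia markers were lower in mutants in 6 of 6 genes under PBS (median -0.28), where 49.9% of all genes were. Under NDP-MSH 5 of 6 were lower (median -0.28), where 52.4% of all genes were, and 0 passed the adjusted threshold in either. Of the measured B and plasma cell markers 0 of 6 had those 3 arrays lowest, which is near the share of 4.86% over all genes, and of the microglia markers 2 of 6. The part of cell numbers in the chemokine values was not tested.

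**Figure D4:**
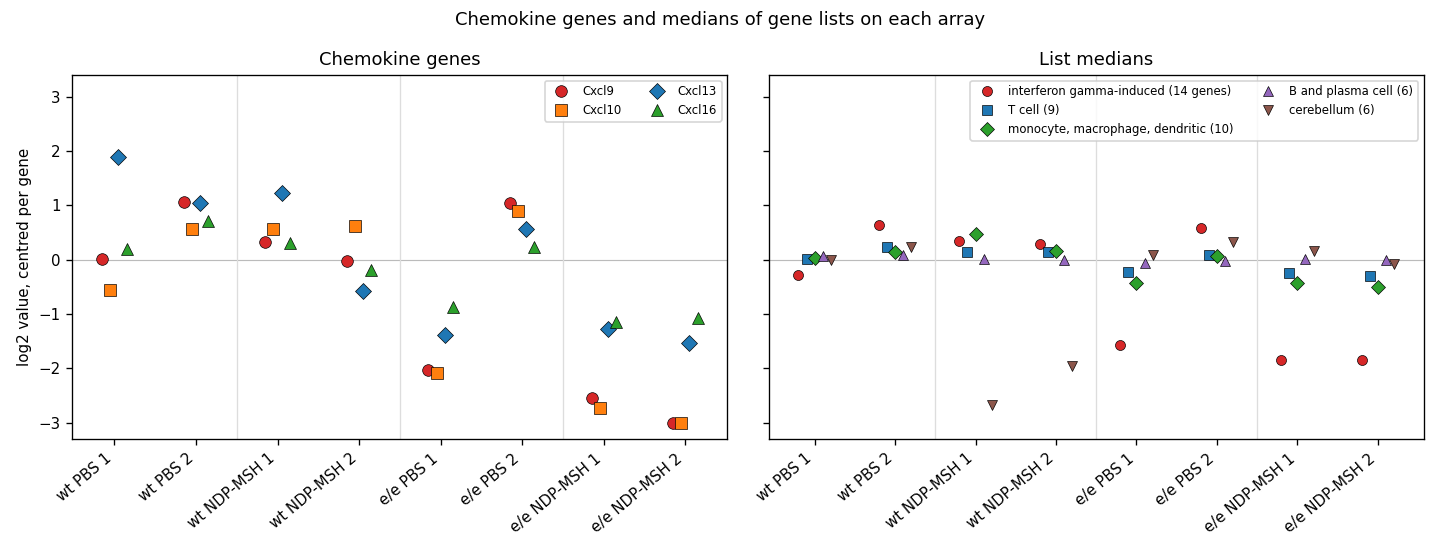
Log2 values, centred per gene (vertical axis), on each of the 8 arrays (horizontal axis), for 4 chemokine genes (left) and as medians of 5 gene lists (right). Cxcl9, Cxcl10 and the interferon gamma-induced list (medians -1.56, -1.84 and -1.84) are low in mutant PBS 1 and both mutant NDP-MSH arrays, and the cerebellum list is low in wild-type mice given NDP-MSH (-2.67 and -1.96).

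For each member the genes most like it over the 8 arrays were found among 834 genes that varied by an SD of at least 0.3. Since 6 of the 8 members have the same 3 lowest arrays, Pearson's r largely reflects those arrays and is given as a description over 8 arrays. The closest to Cxcl10 were Ifih1, a sensor of viral RNA (r = 0.996), Zbp1 (0.996) and Gbp7 (0.995), all known as interferon-induced. Cxcl9 was closest to Tnfaip2 (0.994), the fungal receptor gene Clec7a (0.991) and the peptide transporter gene Tap1 (0.99). Cxcl16 was closest to Ctss (0.995), Plek (0.993) and Mpeg1 (0.992), which are expressed in myeloid cells. Cxcl13 was closest to Chil1 (0.954), H2-Q5 (0.936) and Slitrk6 (0.935).

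Among the receptors, Cxcr6 was closest to Il1a (0.964), Fn1 (0.951) and the T cell receptor complex gene Cd3g (0.95). Cxcr4 was closest to Was (0.97), H2-Oa (0.961) and Lag3 (0.949), which are genes of blood cells. Cxcr3 had weaker likeness, to Fli1 (0.851), Cd4 (0.831) and Cd109 (0.828). Cxcl12 was closest to genes of neurons and glycan synthesis, Slc18a3 (0.98), which encodes the vesicular acetylcholine transporter, Kcnv1 (0.97) and Hs3st2 (0.964).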

How the data were processed

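The deposited table holds 33793 probe sets on 8 Affymetrix whole-transcript arrays, labelled with the WT Plus kit per the labels' protocols. Its log2 values are the authors' processed values. For the summarisation, the normalization between arrays, the log base and any row filter, the status is: not given in the sources used here. Every row is centred on its median (largest absolute row median 5e-07), and base 2 is an assumption. Steps of single precision left in the deposited values (tolerance 0.1 of a step) put 25942 rows in the range 4 to 8 ahead of centring, 7716 higher than that, and leave 135 undecided, which is a usual range of log2 array signals.

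GEO's platform annotation named the probe sets, of which 23521 carried exactly 1 symbol, 1814 more than 1 and 8458 no name here. The mean over probe sets gave 22180 genes, and each member had 1 probe set. limma 3.58.1 in R 4.3.3 was fitted to all 8 arrays with 1 coefficient per group (4 residual and 3.45 prior degrees of freedom), with two-sided moderated tests, Benjamini-Hochberg adjustment over all genes and a threshold of 0.05. The fit was tested on simulated data. Alternatives left out each array in turn, used each probe set singly, fitted the compared arrays alone, centred arrays on their medians, applied quantile normalization, robust moderation or array weights, or blocked on replicate number. Quantile normalization acted on the row-centred values and not on signals. Extreme centred values can move through that step alone, so its results do not show how normalized signals would behave. Members and lists were chosen with earlier results of these data known. All members are named. From each pathway list the genes past the threshold are named, or otherwise the pair with the smallest p in any comparison (unadjusted p under 0.05), and for likeness the 3 non-member genes with the highest r, leaving out predicted, small RNA and receptor-family symbols. Equally numbered samples did not deviate together in every pair of groups (correlations from -0.251 to 0.443 over genes), so the numbers were not taken as pairs. Some listed names were not analysed here. Promoters are from RefSeq, GRCm38.p6. Plots used matplotlib 3.10.9 (Python 3.11.15).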

Additional observations from a re-analysis of the deposited data

How the results depend on the processing

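No member passed the adjusted threshold in the 3 planned contrasts other than NDP-MSH against PBS in mutant mice, under any alternative. Over single arrays left out, the number of members past the threshold ran from 0 to 2 for NDP-MSH against PBS in mutant mice and from 0 to 3 for mutant against wild-type under NDP-MSH, where the fit of only the 4 arrays compared gave 3. The number of genes past the threshold depended more on the setting. For NDP-MSH in wild-type mice (39 genes) it was 14 with the replicate block, 15 after quantile normalization, 5 with only the 4 arrays compared, and 0 to 49 over arrays left out. It ran from 0 to 51 over arrays left out in mutant mice, from 0 to 7 for the difference of effects (1 after quantile normalization), and from 0 to 4 between genotypes under PBS. Between genotypes under NDP-MSH (75 genes) it was 16 after quantile normalization, 477 with only the 4 arrays compared, and 0 to 471 over arrays left out. The fits of fewer arrays use another estimate of the spread, and the cause was otherwise not tested.

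With the replicate number as a block, the count of members past the threshold stayed 0 in all 5 comparisons, and 51 genes passed between genotypes under NDP-MSH. The block left each member's difference as it was. Same-numbered arrays of the wild-type and mutant NDP-MSH groups correlated at -0.126, and with crossed numbers as a block and only those 4 arrays, 881 genes and 5 members passed. No label gives that pairing and it was picked from the deviations it removes, so these counts support nothing.

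No member passed the threshold in the fit of all 8 arrays, so any change of direction was bound to fall on a difference that had not passed. After quantile normalization Cxcr3 lay at -9e-05 in wild-type mice and at -0.03 in the difference of effects, where centring on array medians gave -0.01. Over arrays left out, in wild-type mice Cxcl9 ran from -0.91 to 0.13, Cxcr3 from -0.14 to 0.19, Cxcr6 from -0.14 to 0.28 and Cxcr4 from -0.34 to 0.19. In mutants Cxcr3 ran from -0.11 to 0.15 and Cxcl12 from -0.03 to 0.36. In the difference of effects Cxcr3 ran from -0.16 to 0.17, Cxcl13 from -1.11 to 0.84, Cxcl16 from -0.16 to 0.95, Cxcl12 from -0.12 to 0.27 and Cxcr4 from -0.13 to 0.4. Between genotypes under PBS Cxcl9 ran from -2.57 to 0.5, Cxcl10 from -2.09 to 0.89, Cxcr6 from -0.33 to 0.09 and Cxcl12 from -0.11 to 0.28, and under NDP-MSH Cxcl12 ran from -0.06 to 0.09. With 2 arrays a group, the number of arrays limits the precision.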
